A study of Mus musculus with 3 samples.

Results

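LECT2 (leukocyte cell-derived chemotaxin 2) is a secreted protein, and 3 cell surface receptors have been proposed for it: the C-type lectin CD209a, the receptor tyrosine kinase c-MET and the endothelial receptor TIE1. The transcripts of these receptors (Cd209a, Met and Tie1) and of Hgf, which encodes the established ligand of c-MET, were followed in mouse bone marrow (BM). The genes were chosen by symbol for these roles, and all 4 were found among the 17250 gene names of the deposited tables. The RNA came from BM cells flushed from the femur, tibia, pelvis and humerus of C57BL/6 mice aged 6 to 8 weeks. One group had 0 days of LECT2, and the other groups had 1 subcutaneous dose of 300 μg/kg recombinant LECT2 a day for 3 or for 5 days. Each time point had 1 library. The labels give neither the number of mice behind a library nor a vehicle injection for the 0-day group. There is thus no replicate error and no p-value, and the 95% intervals given here cover counting error only.

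CD209a is one of the mouse relatives of human DC-SIGN, lectins of myeloid cells that bind sugar chains on microbes and on host proteins. c-MET is best known from epithelial growth and repair, and it is also present on some myeloid and stromal cells. Its ligand, hepatocyte growth factor (HGF), is secreted as an inactive precursor by stromal and myeloid cells and is activated by cleavage. TIE1 sits mainly on endothelial cells, where it partners with TEK (TIE2), the receptor for the angiopoietins.

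The libraries held between 15146983 and 15523952 reads on genes. The level of a gene is given as RPKM, its reads per kilobase of transcript scaled to the reads on genes in the library, so levels can be compared between genes. Differences between time points are log2 ratios of RPKM + 0.1, and their intervals are those of the ratio of the 2 counts without this addition. Against 0 days, the 11144 genes that averaged 1 RPKM or more had median ratios of 0.10 (3 days) and 0.31 (5 days). Under TMM scaling (trimmed mean of M-values, which centres the bulk of genes on no change) they were 0.02 and 0.01. Longer transcripts had higher ratios, and the longest of 10 length classes had medians of 0.55 and 0.85. As a check of the tissue, the 12 neutrophil and 8 erythroid markers with a row all reached 1 RPKM, the neutrophil markers with a summed level from 150173 RPKM at 0 days to 41432 RPKM at 5 days. Both comparisons against 0 days share the same 0-day library. In this bulk RNA, fewer cells of a type and less RNA per cell cannot be told apart.

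Transcripts of all 4 genes were counted in every library, and in deposited RPKM their order changed over the 5 days. At 0 days Cd209a had the highest level with 10.4 RPKM (95% interval 9.10 to 11.8), followed by Hgf with 2.34, Met with 1.61 and Tie1 with 0.465 RPKM. Each neighbour in that order was separated by more than counting error, the closest pair being Hgf and Met with a ratio of levels of 1.45 (1.12 to 1.88). At 3 days the order was the same, but Hgf and Met, with 4.12 and 3.69 RPKM, were not separated (ratio 1.12, 0.926 to 1.34). At 5 days Met, with 9.18 RPKM, stood beside Cd209a with 8.38 RPKM, and this pair was not separated (ratio 1.09, 0.937 to 1.28). Hgf and Tie1 followed with 4.37 and 0.963 RPKM. The order depended on the length trend. Levels were also rebuilt from the 0-day level and the log2 ratios with that trend removed, a setting added once the data had been seen. Hgf and Met were then separated at 3 days (ratio 1.45, 1.2 to 1.74). Met stayed under Cd209a at 5 days, with 5.28 against 8.34 RPKM (ratio of Met to Cd209a 0.632, 0.541 to 0.742). This setting keeps the 0-day levels as deposited, its order at 5 days rests on that choice, and no other library was tried as the reference. From the shortest to the longest length class, medians ran from −0.43 to 0.85 at 5 days against 0 days. Between 5 and 3 days they ran from 0.09 to 0.31.

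**Figure D1:**
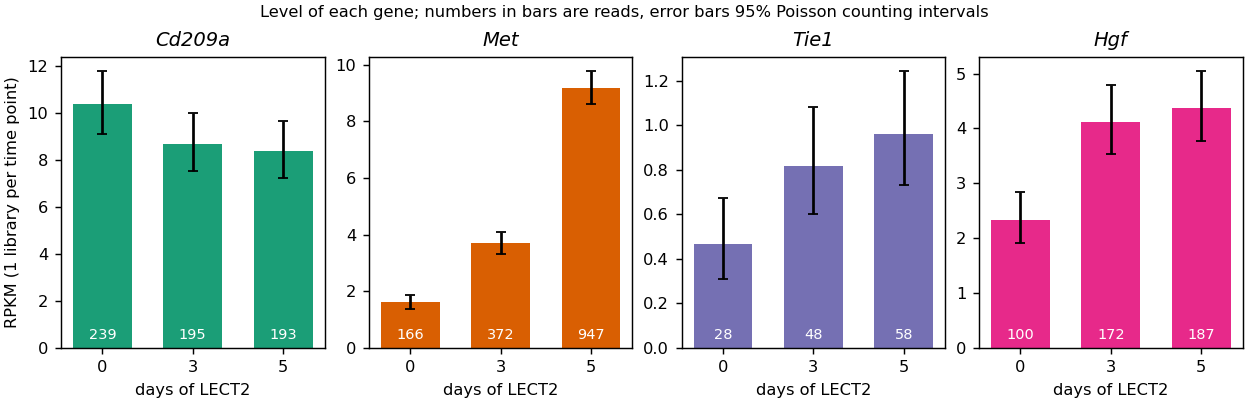
Level of Cd209a, Met, Tie1 and Hgf at 0, 3 and 5 days of LECT2, in RPKM, with 1 library per time point and bars for the exact 95% Poisson interval of the reads. Met climbs from 1.61 to 9.18 RPKM, Hgf from 2.34 to 4.37 RPKM with most of the step by 3 days, Cd209a goes from 10.4 to 8.38 RPKM, and Tie1 stays below 1 RPKM.

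A gene was called changed when it differed at least 2-fold and had at least 1 RPKM in either library of the pair. Cd209a, Met and Hgf reached this minimum in each comparison, and Tie1 in none. Of these 3 genes, Met was called higher at 3 days against 0 days, at 5 days against 0 days and at 5 days against 3 days, and none was called lower. Among all genes, 4.08% were called higher and 2.41% lower at 3 days, 15.5% higher and 5.91% lower at 5 days, and 1.95% higher and 3.45% lower between 3 and 5 days. The split depended on the scaling. Of the genes called changed, 62.9% were higher at 3 days and 72.4% at 5 days, but 49.0% and 41.3% with TMM scaling. Between 5 and 3 days the share was 36.1%, and 10.6% with TMM scaling. After removal of the trend on gene length, the shares were 58.8%, 39.9% and 11.8%. A 2-fold step at 5 days was thus common among all genes. Counts of calls in the lists are to be read beside these shares.

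Met lies on chromosome 6 at 17463800 to 17573980 on the plus strand, with 22 exons in its longest transcript. These and all further positions are from the GRCm38 annotation, since the tables carry no coordinates. The stretch upstream of Met is shown because this gene had the largest ratios of the 4. It covers the 93 bases before the annotated transcripts at chr6:17463707-17463799 (GRCm38.p6, from RefSeq), on the plus strand, 5′ to 3′, with a GC box (GGGCGG) in capitals.

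Met upstream: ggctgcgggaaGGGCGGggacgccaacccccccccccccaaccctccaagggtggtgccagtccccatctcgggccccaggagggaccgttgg

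For Met, 166, 372 and 947 reads were counted at 0, 3 and 5 days, which is 1.61 (1.37 to 1.87), 3.69 (3.33 to 4.09) and 9.18 (8.60 to 9.78) RPKM. The 3 intervals did not overlap, with the 0-day library lowest and the 5-day library highest. The log2 ratio against 0 days was 1.15 (0.93 to 1.47) at 3 days and 2.44 (2.27 to 2.76) at 5 days, and between 5 and 3 days it was 1.29 (1.14 to 1.49). At 5 days Met stood at 571% of its 0-day level. Met is a long transcript, of 6652 bases in the tables, and belongs to the longest of the 10 length classes. Of the 1115 genes in that class, 48 had a larger log2 ratio at 3 days, 8 at 5 days and 3 between 3 and 5 days. Removing the length trend gave 0.66, 1.66 and 0.98, so that the steps at 3 days and from 3 to 5 days were then under 2-fold. With TMM scaling they were 1.07, 2.14 and 1.07. Met was higher at each later time point under every scaling tried.

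**Figure D2:**
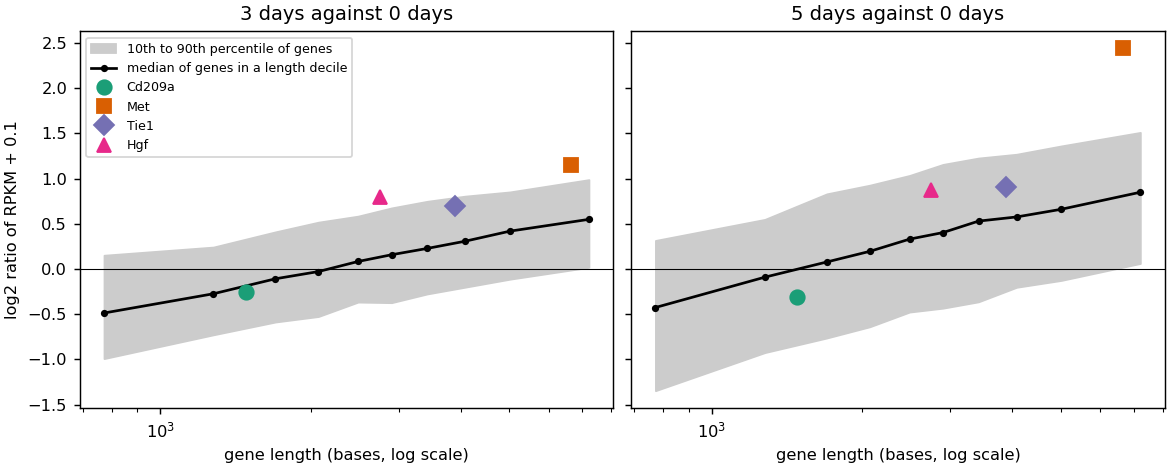
Log2 ratio against 0 days over gene length (bases, log axis) at 3 days (left) and 5 days (right), with the 4 genes as marked points, the median of each of 10 length classes as a black line and the range from percentile 10 to 90 in grey. Met lies above the median of its class by 0.60 at 3 days and 1.59 at 5 days, while Cd209a lies 0.02 above the median of its class at 3 days and at −0.21 from it at 5 days.

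Hgf lies on chromosome 5 at 16553495 to 16620152 on the plus strand, with 19 exons, and 2 unreviewed gene models overlap it on the same strand. The 250 bases upstream of it, at chr5:16553245-16553494 (GRCm38.p6, from RefSeq, plus strand, 5′ to 3′), are shown beside those of Met because both genes had higher counts after LECT2 but with different time courses. The capitals mark an ETS core read on the other strand (ACTTCC).

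Hgf upstream: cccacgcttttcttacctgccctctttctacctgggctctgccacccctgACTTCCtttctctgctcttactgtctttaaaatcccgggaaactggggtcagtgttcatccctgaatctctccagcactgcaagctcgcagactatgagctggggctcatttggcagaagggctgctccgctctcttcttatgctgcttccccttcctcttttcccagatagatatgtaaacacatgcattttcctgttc

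The reads on Hgf numbered 100 at 0 days, 172 at 3 days and 187 at 5 days (2.34, 4.12 and 4.37 RPKM). Both later libraries were above the 0-day library, and they did not differ from each other beyond counting error. The log2 ratio was 0.79 (0.45 to 1.19) at 3 days and 0.88 (0.55 to 1.27) at 5 days, under 2-fold in both, and 0.08 (−0.22 to 0.39) between 5 and 3 days. With TMM scaling the values against 0 days were 0.71 and 0.58, and with the length trend removed 0.66 and 0.50. Of the 1118 genes in the length class of Hgf, 74 had a larger log2 ratio at 3 days and 226 at 5 days. The sign between 5 and 3 days changed with the scaling, to −0.13 with TMM and −0.18 with the length trend removed. The count of Met was thus separated by more than counting error in both steps, 0 to 3 and 3 to 5 days, and that of Hgf in the first step.

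**Figure D3:**
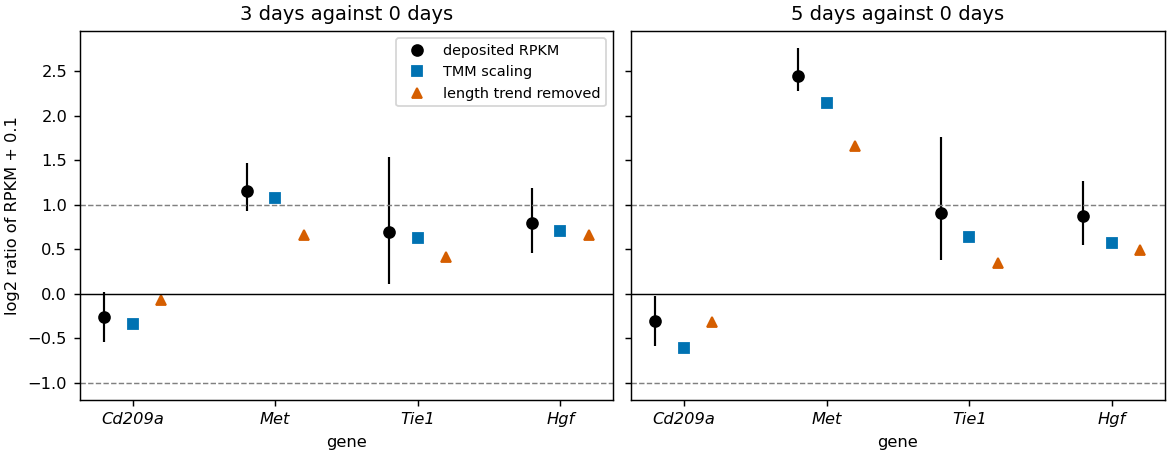
Log2 ratio of the 4 genes at 3 days (left) and 5 days (right) against 0 days, with the deposited RPKM (circles, with the 95% interval of the count ratio), TMM scaling (squares) and the length trend removed (triangles), and dashed lines at 2-fold. The values of Met run from 0.66 to 1.15 at 3 days and from 1.66 to 2.44 at 5 days, and those of Cd209a lie between −0.61 and −0.07.

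MST1R, the closest relative of c-MET, and its ligand MST1 were scarcely counted. Mst1r had 8, 26 and 36 reads at 0, 3 and 5 days, no more than 0.493 RPKM, with log2 ratios of 1.15 (0.55 to 3.09) and 1.5 (1.04 to 3.49). Mst1 had 8, 12 and 11 reads. Both were under the minimum of 1 RPKM, and of this pair only Mst1r had intervals above 0.

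Genes around c-MET were taken from a list of 55, which joins its ligands and receptors, the enzymes and inhibitors of HGF activation, co-receptors and sheddases, and signalling adaptors. Of these, 52 had a row and 39 reached the minimum at each time point. At 3 days 5 of the 39 were called higher and 0 lower, and at 5 days 9 higher and 1 lower, Met itself included. Among all genes, 4.08% and 15.5% were called higher and 2.41% and 5.91% lower. The list medians were 0.33 (3 days) and 0.54 (5 days), against 0.10 and 0.31 over all genes. With TMM scaling the 5-day median was 0.23 and 6 genes were called higher at 5 days. Without the length trend the 3-day median was 0.15, and the calls at 3 days came down from 5 to 1, Cbl, those of Met, Plxnb2, Itga6 and Crkl being lost, when 2.59% of all genes were called higher and 1.81% lower. The 5-day median was then −0.11 and 5 genes were called higher, beside 5.05% of all genes called higher and 7.61% lower.

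Of the 5 HGF activation genes that reached the minimum, 0 were called changed at 3 days and 1 was called lower at 5 days. This was Plaur, which encodes the urokinase receptor, with 550, 325 and 122 RPKM and a log2 ratio of −2.18 (−2.24 to −2.11) at 5 days. Spint2, an inhibitor of the HGF-activating proteases, had 38.8, 23.6 and 27.1 RPKM. Plau, the protease urokinase, had 6.85, 7.33 and 6.85 RPKM. Plat, the other plasminogen activator, was at 0 reads at 3 and at 5 days, and the protease inhibitor gene Spint1 at 0 days. A count of 0 allows up to 3 reads, a one-sided 95% limit, unlike the two-sided intervals of the levels.

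Of the 10 co-receptor and shedding genes that reached the minimum, 2 were called higher at 3 days and 4 at 5 days, and 0 lower. The shares called higher among all genes were 4.08% and 15.5%. Plxnb2, a semaphorin receptor of the plexin family, whose B-type members can associate with c-MET, had 5.64, 13.6 and 22.1 RPKM, with log2 ratios of 1.25 (1.13 to 1.41) and 1.95 (1.83 to 2.10). Itga6, the laminin-binding integrin subunit α6, had 1.98, 4.16 and 7.59 RPKM, with log2 ratios of 1.04 (0.77 to 1.39) and 1.89 (1.66 to 2.23). The proteases Adam10 and Adam17, which shed receptors from the surface, were called higher at 5 days, with log2 ratios of 1.03 (0.96 to 1.11) and 1.02 (0.91 to 1.15). The co-receptor Cd44 did not follow them, with 101, 117 and 89.2 RPKM. The tyrosine phosphatase gene Ptpn1 had 34.4, 48.1 and 49.8 RPKM. After removal of the length trend, both calls at 3 days were lost, with 0.77 for Plxnb2 and 0.72 for Itga6, and the calls at 5 days were 2, Plxnb2 and Itga6.

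Of the 22 adaptor and effector genes that reached the minimum, 2 were called higher at 3 days and 4 at 5 days, and 0 lower. Over all genes, 4.08% were called higher at 3 days and 15.5% at 5 days. The largest ratio was that of Cbl, the ubiquitin ligase that marks activated receptor tyrosine kinases, c-MET among them, for degradation. It had 202, 1184 and 1892 reads, or 2.56, 15.4 and 24.0 RPKM, with log2 ratios of 2.54 (2.37 to 2.81) and 3.18 (3.02 to 3.44). The adaptor gene Crkl had 6.20, 15 and 21.6 RPKM, with log2 ratios of 1.26 (1.09 to 1.45) and 1.78 (1.63 to 1.97). Sos1, an exchange factor for RAS, and Plcg1, a phospholipase, were called higher at 5 days, with log2 ratios of 1.2 (1.05 to 1.40) and 1.55 (1.36 to 1.81). The most abundant genes of this group were within 2-fold: Mapk3 had 192, 171 and 130 RPKM, Akt1 79.9, 112 and 140 RPKM, and Grb2 89.9, 106 and 107 RPKM. Without the length trend, 1 of the 2 calls at 3 days was lost, that of Crkl with 0.98, and at 5 days Cbl and Crkl stayed above 2-fold and Sos1 and Plcg1 did not.

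Markers of other cells were read beside Met and Hgf. All 17 monocyte markers reached the minimum, and at 3 days 3 were called higher and 0 lower, at 5 days 10 higher and 2 lower, with median log2 ratios of 0.56 and 1.12 (0.57 and 0.77 with the length trend removed, when 3 and 8 were called higher). Csf1r, the receptor for macrophage colony-stimulating factor, had 26.7, 49.6 and 85.3 RPKM. F13a1, the coagulation factor XIII A subunit of monocytes, had 72, 177 and 365 RPKM and was also among the genes nearest to Met in course. Csf1r and F13a1 were both among the 10 called higher at 5 days, and the 2 called lower are not given with values. The summed level of the list was 5762, 7398 and 6682 RPKM, most of it the lysozyme gene Lyz2. Of 13 stromal markers, 7 reached the minimum, with 0 called at 3 days and 4 lower at 5 days, a median of −0.47 and −1.0, and a summed level of 67.1, 70.7 and 73.9 RPKM. The calls at 5 days were also 4 without the length trend, and 1 was then lower at 3 days. The most abundant of them differed in course: Vcam1, an adhesion molecule also of macrophages, had 29.4, 39.9 and 48.3 RPKM, the lipase gene Lpl 11.1, 12 and 14.4 RPKM, and Cxcl12 15.9, 10.9 and 5.38 RPKM. Pdgfra had no more than 12 reads. Of both lists, only Nes was at 0 in a library, at 0 days. The part of these cells in the levels of Met and Hgf was not tested.

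Cd209a lies on chromosome 8 at 3743397 to 3748984 on the minus strand, with 7 exons, next to the other CD209 genes. Its 250 upstream bases, at chr8:3748985-3749234 (GRCm38.p6, from RefSeq, minus strand, 5′ to 3′), are shown because this receptor kept its level within 2-fold. The capitals mark a TATA motif read on the other strand (TTTATA) and an ETS core (GGAAGT).

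Cd209a upstream: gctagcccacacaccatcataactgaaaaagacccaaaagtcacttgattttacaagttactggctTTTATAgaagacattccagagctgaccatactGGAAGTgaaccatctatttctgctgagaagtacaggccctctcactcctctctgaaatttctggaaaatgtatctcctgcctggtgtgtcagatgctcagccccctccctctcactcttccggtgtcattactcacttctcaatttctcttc

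Cd209a was counted with 239, 195 and 193 reads at 0, 3 and 5 days, which is 10.4 (9.10 to 11.8), 8.68 (7.50 to 9.98) and 8.38 (7.24 to 9.65) RPKM. The 3 intervals overlapped. The log2 ratio was −0.26 (−0.54 to 0.02) at 3 days, −0.30 (−0.59 to −0.03) at 5 days and −0.05 (−0.34 to 0.25) between 5 and 3 days. A difference at 3 days was thus not detectable at this depth, and at 5 days the interval lay just below 0 and well within 2-fold. With TMM scaling the values against 0 days were −0.34 and −0.61, and with the length trend removed −0.07 and −0.31. Cd209a was lower than at 0 days under every scaling tried, by less than 2-fold.

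The mouse has several CD209 genes, of which 8 were listed and 7 had a row. Their reads summed to 923, 693 and 604 at 0, 3 and 5 days. Of the 4 that reached the minimum, 0 were called higher, 0 lower at 3 days and 1 lower at 5 days. Cd209c had the highest level, with 449, 343 and 290 reads (18.4, 14.4 and 11.9 RPKM) and log2 ratios of −0.35 (−0.56 to −0.15) and −0.63 (−0.85 to −0.41). Its transcript shares 22.4% of its 50-base words with other loci, so its count is uncertain. Cd209d had 192, 98 and 77 reads (14.1, 7.35 and 5.64 RPKM), and its log2 ratio was −0.93 (−1.30 to −0.58) at 3 days and −1.30 (−1.72 to −0.93) at 5 days, the gene called lower. This call was lost once the length trend was removed (−0.99), and with TMM scaling Cd209d was called lower at 3 days as well (−1.01). The share of Cd209a in the summed RPKM of the family was 22.9% at 0 days, 25.8% at 3 days and 29.5% at 5 days. Cd209a therefore took a larger part of a smaller sum. Cd209f, with 29, 38 and 31 reads, and Cd209g, with 7, 10 and 8, share 38.2% and 38.7% of their words with each other and cannot be fully separated. Cd209e had 7, 7 and 3 reads, and Cd209b 0, 2 and 2. Cd209a shares no 50-base word with another gene, nor do Met, Tie1 and Hgf.

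**Figure D4:**
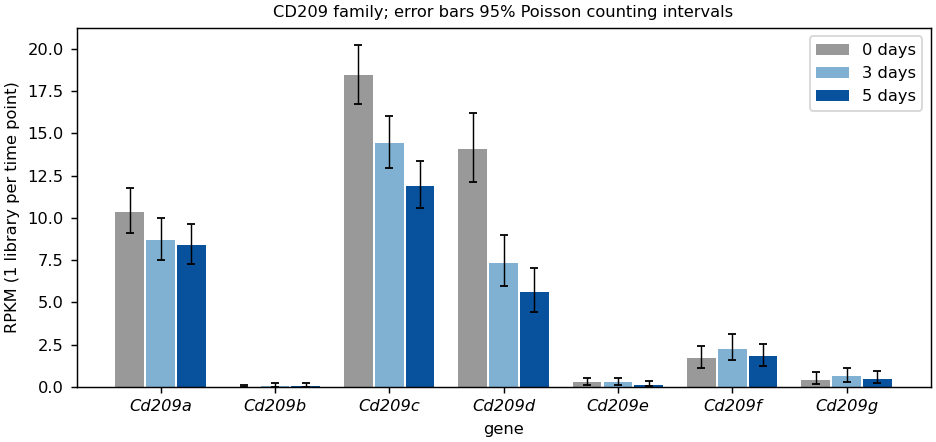
Level in RPKM of the 7 CD209 genes with a row, at 0, 3 and 5 days of LECT2 (1 library each, bars for the exact 95% Poisson interval). Cd209c, Cd209d and Cd209a lie above 5 RPKM at each time point, and Cd209d goes from 14.1 to 5.64 RPKM while Cd209a stays between 8.38 and 10.4 RPKM.

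Markers of 3 kinds of cells that can carry CD209a were read beside it, and none with a row was at 0 in any library. Of 22 dendritic cell markers, 18 reached the minimum, with 0 called higher and 2 lower at 3 and at 5 days, a median log2 ratio of −0.58 and −0.43, and a summed level of 2461, 1715 and 1660 RPKM. The MHC class II gene H2-Aa had 383, 253 and 223 RPKM, and Zbtb46, a factor of conventional dendritic cells, 26, 18 and 29 reads. Of 19 macrophage markers, 18 reached the minimum, with 2 higher at 3 days and 5 at 5 days, 0 lower, a median of 0.54 and 0.53 and a summed level of 416, 497 and 550 RPKM. Siglec1, which encodes CD169, had 1.09, 3.24 and 4.51 RPKM. Of 14 osteolineage markers, 10 reached the minimum, with 1 lower at 3 days and 9 at 5 days, 0 higher, a median of −0.22 and −1.34 and a summed level of 97.6, 90.1 and 36.1 RPKM. Col1a1, the main bone collagen, had 13.7, 21.3 and 5.45 RPKM. Without the length trend, 0 dendritic markers were lower at 3 days and 1 at 5 days, 2 and 3 macrophage markers were higher, and 1 and 9 osteolineage markers were lower. The macrophage median at 5 days was then 0.22, and 0.23 with TMM scaling. The part of these cells in the level of Cd209a was not tested.

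**Figure D5:**
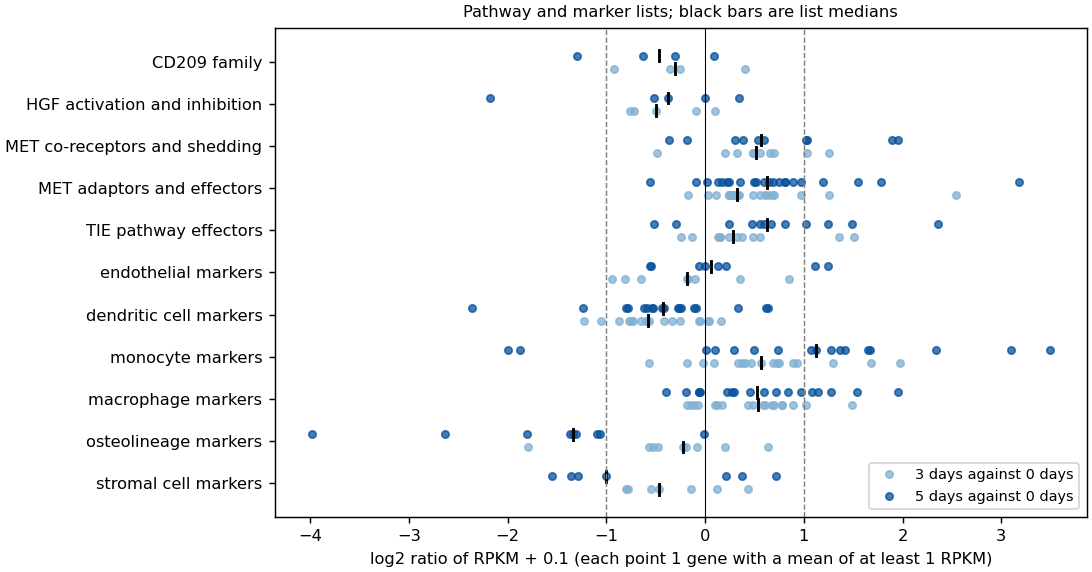
Log2 ratio against 0 days (horizontal axis) of the genes of 11 pathway and marker lists that averaged 1 RPKM or more, with 1 point per gene, light for 3 days and dark for 5 days, and black bars at the list medians. At 5 days the osteolineage markers have a median of −1.34, the monocyte markers of 1.12 and the MET adaptors and effectors of 0.62, against 0.31 over all genes.

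Tie1 lies on chromosome 4 at 118471191 to 118490061 on the minus strand, with 22 exons. Its reads were few, 28, 48 and 58 at 0, 3 and 5 days, which is 0.465, 0.816 and 0.963 RPKM, the lowest level of the 4 genes in every library. The log2 ratio was 0.70 (0.11 to 1.54) at 3 days, 0.91 (0.38 to 1.76) at 5 days and 0.21 (−0.34 to 0.82) between 5 and 3 days. Both intervals against 0 days lay above 0, and neither reached the 2-fold line at its lower end. The length class of Tie1 had medians of 0.31 at 3 days and 0.58 at 5 days. Of its 1115 genes, 167 and 283 had a larger log2 ratio than Tie1. Without the length trend the values of Tie1 were 0.41 and 0.35, and between 5 and 3 days the sign turned to −0.08. With TMM scaling they were 0.63, 0.64 and 0.01.

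Tek, the gene of the partner of TIE1, and Angpt1 did not share this course, and Angpt2 and Angpt4 had too few reads to show one. Tek had 24, 9 and 12 reads, with log2 ratios of −0.92 (−2.67 to −0.22) and −0.70 (−2.13 to 0.06). Angpt1, the activating ligand of TEK, was the only gene of this group above the minimum, with 345, 265 and 312 reads (5.45, 4.29 and 4.93 RPKM) and log2 ratios of −0.34 (−0.58 to −0.11) and −0.14 (−0.37 to 0.08). Angpt2 had 8, 6 and 4 reads and Angpt4 1, 1 and 2. Tie1 was thus the only receptor or ligand of the group with a higher count at both later time points outside counting error. This holds for counts with the length trend left in.

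A list of 22 genes of the TIE pathway had 21 rows, of which 13 reached the minimum. At 3 days 2 were called higher and 0 lower, and at 5 days 4 higher and 0 lower, with a median of 0.24 and 0.59. With the length trend removed the medians were 0.09 and 0.26, and 2 were called higher and 1, Foxo1, lower at 5 days. All genes as deposited had 4.08% called higher at 3 days and 15.5% at 5 days, with medians of 0.10 and 0.31. Foxo3, a transcription factor held back by AKT, had 5.73, 14.8 and 16.2 RPKM, with log2 ratios of 1.36 (1.16 to 1.59) and 1.48 (1.29 to 1.71). Grb14, an adaptor that binds receptor tyrosine kinases, had 11, 36 and 69 reads (0.358, 1.2 and 2.25 RPKM), with log2 ratios of 1.51 (0.74 to 2.87) and 2.36 (1.72 to 3.72). Both were called higher at 3 and at 5 days. The other 2 calls at 5 days were Adam17, already given, and Itga5, the fibronectin receptor subunit α5, with 5.44, 7.09 and 13 RPKM. Itgb1, the integrin subunit β1, had 38.6, 42.9 and 61.3 RPKM.

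Endothelial markers other than Tie1 were read beside it. All 26 had a row, and 9 reached the minimum at 3 days and 10 at 5 days, with 0 called at 3 days and 2 higher at 5 days, Eng and Erg. Both calls were lost without the length trend, with log2 ratios of 0.72 and 0.87, and with TMM scaling, with 0.94 and 0.80. As deposited, 15.5% of all genes were called higher at 5 days. The list medians were −0.18 (3 days) and 0.06 (5 days), but −0.27 and −0.25 with TMM scaling and −0.45 and −0.37 without the length trend, so that the sign at 5 days depended on the scaling. The summed level of the list was 113, 106 and 130 RPKM. Cdh5, which encodes VE-cadherin, had 2.51, 1.57 and 2.40 RPKM, and Kdr, the VEGF receptor, 60, 55 and 71 reads. Pecam1 and Icam2, which leukocytes also express, led the list with 38.1, 33.5 and 41.7 RPKM and with 29.3, 27.2 and 29.2 RPKM. Cldn5 was at 0 reads at 5 days and Sox17 at 0 reads at 3 days, which allows up to 3 reads by the same one-sided limit. Counts moved both ways within the list. At 3 days 5 of the 26 had an interval of the log2 ratio wholly above 0 and 8 wholly below 0, and at 5 days 8 above and 5 below. Flt1, a VEGF receptor, had 18, 37 and 59 reads, and Stab2, a scavenger receptor of sinusoidal endothelium, had 73, 122 and 145 reads. Eng, a co-receptor for TGF-β ligands, had 3.61, 4.64 and 8.70 RPKM, and the ETS factor gene Erg 8.00, 14.5 and 17.4 RPKM. Like Tie1, these 4 had higher counts at both later time points, but they were picked after their values were seen and do not stand for the list. The part of endothelial cells in the level of Tie1 was not tested.

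For each of the 4 genes, the genes with the closest pair of log2 ratios at 3 and 5 days were found by Euclidean distance over these 2 values. Few genes were near Met in course, and 4 of 11089 genes lay within 0.25 of it. They were Kifc3, Sh3pxd2b, F13a1 and Alms1, with Plcb1 next at 0.252. The course of Cd209a was common, with 893 genes (8.05%) within this distance, the closest being Strn3, Abcb9, AI413582, Tmem219 and Nudt8. For Tie1 the number was 803, led by Rb1, Mtpn, Brwd3, Tsc22d2 and Traf3. For Hgf it was 525, led by Pja2, Zfp236, Uhrf1bp1l, Pik3c2a and Abca7. The distances rest on the same 0-day library for both values and on ratios with the length trend left in. Few genes have ratios as large as those of Met, so a fixed distance finds few neighbours there.

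The 250 bases before the RefSeq start of each of the 4 genes were searched on both strands for a GC box (GGGCGG) and an ETS core (GGAAGT). The search also covered a TATA motif (TATAAA) and a GATA motif (AGATAA). An AP-1 motif (TGANTCA) was the last. Of all 32851 windows of this length, 32.7% held the GC box, 9.99% GATA, 19.7% ETS, 12.4% TATA and 6.75% AP-1. The window of Met held 3 GC boxes and 1 AP-1 motif. Only 93 of its bases lie outside transcripts annotated by GENCODE, and 1 GC box is in that stretch, shown above, while the other GC boxes and the AP-1 motif lie within annotated transcripts. The window had a GC content of 74.0%, at percentile 95.1 of all windows. Cd209a had 1 ETS and 1 TATA match and a GC content of 44.8%, and Hgf 1 ETS match and 50.8%. Tie1 had 1 ETS match and 60.4%. Its match also lies within annotated transcripts, which leave 38 of its 250 bases outside. The median of all windows was 52.4%. Met and Hgf shared none of the motifs in these windows.

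The ligand gene Lect2, on chromosome 13 at 56542464 to 56548502 in GRCm38, had no row in the tables, so no level is given for it, and Cd209h had none either.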

How the data were processed

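RNA of flushed BM cells was sequenced after oligo(dT) selection, with 1 library per time point. The authors quantitated genes with Cufflinks, and the submitters' processing notes name the mm8 build. The aligner is not given in the sources used here. The tables the authors deposited pair the time points and give each gene's whole read counts and RPKM. The authors' log2 ratio, P value and false discovery rate columns hold their own comparisons and were not used. The deposited RPKM equalled the counts over transcript length and over the reads on genes (15146983 to 15523952 per library) within 0.1%, except in 18 rows at 0 days and 14 at 3 days. RPKM listed at 0.01 without reads was set to 0. Where rows shared a symbol, the most abundant one by mean RPKM was taken.

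Log2 ratios of RPKM + 0.1 were computed with a 95% exact (Clopper-Pearson) interval of the count ratio, and levels with an exact Poisson interval. A call needed a 2-fold difference and 1 RPKM in either library, and list medians a mean of 1 RPKM. Fold changes were not read against a library with 3 reads or fewer. No replicate exists, so no test was run. Reads of a PCR library are not independent molecules. The library kit is not stated to keep strand.

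Named were the 4 genes, Lect2, all CD209, MET and TIE ligand and receptor genes, and of each other list the 3 most abundant genes and those called alike at 3 and 5 days, up to 5. Further genes are named for calls of a list or as defining markers, and were chosen after their values were seen. Of the genes the rule names in marker lists, a part is given with values and the rest by the counts and medians of the lists. The values of 1 gene of the signalling lists are not reported here. The members and lists were chosen with earlier results of these data known. The lists cover the CD209 family, DC-SIGN signalling, the MET and TIE pathways, and markers of endothelial, dendritic, monocyte, macrophage, osteolineage, stromal, megakaryocyte, stem and progenitor, basophil and mast, promyelocyte, neutrophil and erythroid cells.

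Alternatives were TMM scaling (edgeR 4.0.16), median-of-ratios size factors (DESeq2 1.42.0), scaling without the 100 most abundant genes, removal of the trend on transcript length (lowess, span 0.3), pseudocounts of 1 and 0.01, minimums of 5 RPKM and none, a 4-fold threshold, and sums of rows that share a symbol. The computation was checked on simulated counts. Shared 50-base words came from GENCODE transcripts, and gene positions and upstream sequences from GRCm38, a later build than mm8, with no coordinates converted.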

Additional observations from a re-analysis of the deposited data

How the results depend on the processing

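No paired analysis was possible because each time point has 1 library, and none can be left out. Of the ratios of the 4 genes recomputed under an alternative, 64 stayed within their 95% counting interval with the same sign. A further 15 moved beyond it with the same sign, and 5 changed sign within it. The 64 include the sums of rows that share a symbol, which left all values of the 4 genes unchanged. Met kept its direction under every alternative. Where a value changed, the cause was not tested, beyond what the setting itself alters.

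Against 0 days at 5 days, Met was 2.14 with TMM, 2.15 with median-of-ratios size factors, 2.25 when the top 100 genes were left out of the scaling, 1.66 with the length trend removed and 1.96 with a pseudocount of 1. At 3 days it was 0.66 with the length trend removed and 0.85 with a pseudocount of 1. Between 5 and 3 days it was 1.07, 1.08, 0.98 and 1.12 with TMM, median-of-ratios, the length trend removed and a pseudocount of 1. Cd209a at 5 days was −0.61 with TMM and −0.60 with median-of-ratios. With the length trend removed, Hgf was 0.50 and Tie1 0.35 at 5 days. Between 5 and 3 days Hgf turned to −0.13 (TMM), −0.13 (median-of-ratios), −0.019 (without the top 100 genes) and −0.18 (length trend removed), and Tie1 to −0.083 (length trend removed).

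With levels rebuilt without the length trend, a setting chosen after seeing the data, the ratio of the level of Met to that of Cd209a at 5 days turned to 0.632. That of Hgf to Met at 3 days was 1.45, and those of Cd209a to Hgf were 2.63 at 3 days and 2.50 at 5 days.

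The median of the genes around c-MET at 5 days was 0.23 with TMM, 0.24 with median-of-ratios, 0.33 without the top 100 genes and −0.11 with the length trend removed, when it was 0.15 at 3 days. Between 5 and 3 days it was −0.027, −0.021 and −0.11 with TMM, median-of-ratios and the length trend removed. In the same order of the 4 settings, the median of the TIE pathway was 0.16, 0.16, 0.145 and 0.087 at 3 days and 0.29, 0.30, 0.39 and 0.26 at 5 days. That of the CD209 family at 5 days was −0.77 with TMM.

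Counts of called genes in the lists also moved. For the MET list, higher at 3 days were 3 with a pseudocount of 1, 3 with a minimum of 5 RPKM, 1 with a 4-fold threshold and 1 with the length trend removed, and higher at 5 days 2 at 4-fold and 5 with the length trend removed. Between 5 and 3 days 0 were higher at 4-fold or with the length trend removed, 0 were lower at 4-fold, and with no minimum 2 were lower there and 2 at 5 days against 0. For the TIE list, higher at 3 days were 1 with a pseudocount of 1 or a minimum of 5 RPKM and 0 at 4-fold, and at 5 days 2 with TMM, median-of-ratios or the length trend removed (1 lower) and 1 at 4-fold. In the CD209 family, 1 was lower at 3 days with the 3 other scalings, and at 5 days 0 at 4-fold or with the length trend removed.

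Over all genes, in the order TMM, median-of-ratios, without the top 100 genes, length trend removed, the number higher at 5 days was 816, 842, 1086 and 581, and between 5 and 3 days 66, 68, 115 and 75. Lower at 5 days were 1162 with TMM and 1142 with median-of-ratios, and higher at 3 days 293 with the length trend removed. A pseudocount of 1 gave 190 higher and 120 lower at 3 days, 1140 higher at 5 days and 52 higher between 5 and 3 days. A minimum of 5 RPKM gave 236 and 118 at 3 days, 421 lower at 5 days, and 94 higher and 258 lower between 5 and 3 days. With no minimum there were 830 and 688 at 3 days, 1180 lower at 5 days, and 578 and 717 between 5 and 3 days. At 4-fold there were 36 and 33, 153 and 186, and 13 and 105. Of the 4 genes, Tie1, with 28 to 58 reads, is the one whose ratio the depth limits most.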

Other observations

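Genes that act below DC-SIGN-type lectins were read from a list of 10, of which 9 reached the minimum. At 3 days 1 was called higher and 0 lower, and at 5 days 2 higher and 0 lower, with a median log2 ratio of 0.33 and 0.30. Beside this, 4.08% and 15.5% of all genes were called higher, with medians of 0.10 and 0.31. Ksr1, a scaffold protein of kinase signalling, had 71, 249 and 280 reads (1.12, 4.02 and 4.42 RPKM), with log2 ratios of 1.76 (1.46 to 2.25) and 1.89 (1.6 to 2.38). Ikbke, a kinase of the NF-kB and interferon pathways, was called higher at 5 days, with 8.39, 14.4 and 21.6 RPKM. The kinase genes Syk and Lyn were within 2-fold, with 117, 162 and 162 RPKM and with 99.9, 136 and 123 RPKM. The 5-day median was −0.01 with TMM scaling and −0.27 without the length trend, where the call of Ikbke was lost, with a log2 ratio of 0.88.

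The remaining marker lists give the cell background of these libraries. All 12 neutrophil markers with a row were called lower at 5 days and 0 at 3 days, with a median of −0.16 and −1.93. Of 8 erythroid markers, 0 were called at 3 days and 2 were lower at 5 days, with a median of −0.12 at both times. Of 6 promyelocyte markers above the minimum, 1, Mpo, was higher at 5 days, with a median of −0.16 and 0.40. Of 12 megakaryocyte markers, 2 were lower at 3 days and 2 at 5 days, with a median of −0.37 and −0.06. Of 13 stem and progenitor markers, 2 were lower at 3 days and 2 at 5 days, with a median of −0.46 and −0.11. Of 10 basophil and mast cell markers, 1 was higher and 1 lower at 3 days and 1 higher and 3 lower at 5 days, with a median of −0.36 and −0.30. Without the length trend the 3-day medians of the neutrophil, erythroid and promyelocyte markers turned to 0.14, 0.11 and 0.22. Called lower were then 11 neutrophil markers at 5 days, and 1 megakaryocyte and 0 basophil and mast cell markers at 3 days. The 5-day medians of the 6 lists, in the order above, were −2.24, −0.43, 0.09, −0.36, −0.42 and −0.61 with TMM scaling. Without the length trend they were −1.86, −0.33, 0.65, −0.34, −0.53 and −0.30.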
